A study of Acropora aff. hyacinthus sp. E JTL-2012 with 12 samples.

Results

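Fragments of the tabletop coral Acropora aff. hyacinthus that lived in the pool their colony came from were compared with fragments of the same colonies that lived in the other pool. A fragment was counted as home where its pool of origin and the pool it was moved into were the same, and as away otherwise, which gave 6 home and 6 away libraries, all 12 libraries of the series. The home fragments were those of corals 2, 7 and 75 in pool 300 and of corals 40, 68 and 70 in pool 400. The away fragments were those of corals 2, 7 and 75 in pool 400 and of corals 40, 68 and 70 in pool 300. Each coral is 1 colony and gave 1 fragment to each pool. Home fragments carry the same labelled transplant date as away fragments, August 3, 2010, and every fragment was sampled in the reef near noon on August 30, 2011. The RNA came from polyps, and no treatment other than the transplant is labelled.

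Reciprocal transplants are used to ask whether an organism does differently in its place of origin than in a foreign place, whichever place that is. A reef coral is a sessile animal that houses photosynthetic algae of the genus Symbiodinium and lays down a skeleton of calcium carbonate. A colony cannot move, so a change in water temperature or light is met by changes inside its cells, among them in heat shock proteins, antioxidant enzymes and immune receptors. Both groups compared here hold fragments from both pools and of both origins, so that neither the pool nor the origin differs between home and away.

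The libraries held 557339 to 1643526 reads, recovered from the deposited values. Home libraries held a median of 892782 reads and away libraries 882096, and the paired difference did not pass an exact two-sided sign-flip permutation test over the 6 corals (p = 0.5, where 0.03125 is the smallest p the design allows). The away fragment of coral 2 was the shallowest library and the home fragment of coral 70 the deepest. On the deposited scale the median contig was 0.10 higher at home on the log2 scale, and after rescaling by median ratios it was at -0.03. The deposited size factors were 0.998 to 1.004 times the median-ratio factors in pool 300, and 0.641 (coral 70, home) to 1.29 (coral 2, away) times in pool 400, whose columns are marked as adjusted, and their part in this shift was not tested. A pair of corals stood apart from the others. Pearson's r over all contigs between home and away fragment was 0.842 in coral 40 and 0.856 in coral 68, and 0.879 to 0.914 in the other 4 corals. With the home fragments of corals 40 and 68 exchanged, r was 0.909 for the away fragment of coral 40 and 0.880 for that of coral 68. The median absolute difference went the other way, from 0.33 to 0.36 and from 0.37 to 0.40 on the rescaled log2 scale. Results are given for the pairs as labelled, and the tests of home against away, of the origins and within pools were repeated with the exchanged pairs.

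Home and away fragments differed in 1 of 11903 contigs with a mean value of at least 10. That contig was lower at home (0.0084% of contigs tested), and none was higher (0%), at a limma adjusted p under 0.05 with the coral as a block. At an unadjusted p under 0.05 there were 160 contigs (1.34%). edgeR on the recovered reads called 1 contig, with 154 at an unadjusted p under 0.05 (1.29%), and DESeq2 called 2 (0.0168%), with 86 (0.723%). With the home fragments of corals 40 and 68 exchanged, limma called none, with 196 at an unadjusted p under 0.05 (1.65%). Without any difference a share of 0.05 of the contigs would be expected there, and each of these shares is smaller. In data simulated for this comparison on 11903 contigs, limma found 23% of the 2-fold and 95% of the 4-fold changes put in. There 8 of 126 limma calls, 10 of 139 edgeR calls and 17 of 156 DESeq2 calls were false. Those data held 200 changed contigs, each changed by the same fold in every coral. With that many changes the adjusted threshold is less strict than with 1 call. The shares found are thus not the power of the comparison made here.

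The contig that passed, contig182707, carries the description C2 domain-containing protein C31G5.15, a name taken from a fission yeast protein. The C2 domain is a protein module that in many proteins binds membranes in the presence of calcium. Its deposited values in the home fragments were 88.3 in coral 2, 36.1 in coral 7, 46.3 in coral 75, 7.44 in coral 40, 33.0 in coral 68 and 26.3 in coral 70. In the away fragments they were 258.3, 114.2, 159.5, 32.2, 186.6 and 57.1 in the same order. The home fragment was the lower of the pair in all 6 corals, while the groups as a whole overlapped, since corals differed in level. Home fragments averaged 39.6 ± 27.2 and away fragments 134.7 ± 84.3 (SD, n = 6 each), and the contig fell by 1.74 at home on the log2(value + 1) scale (SE 0.20, limma adjusted p = 0.0448). In bulk RNA, fewer cells of a type and less RNA per cell cannot be told apart.

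**Figure D1:**
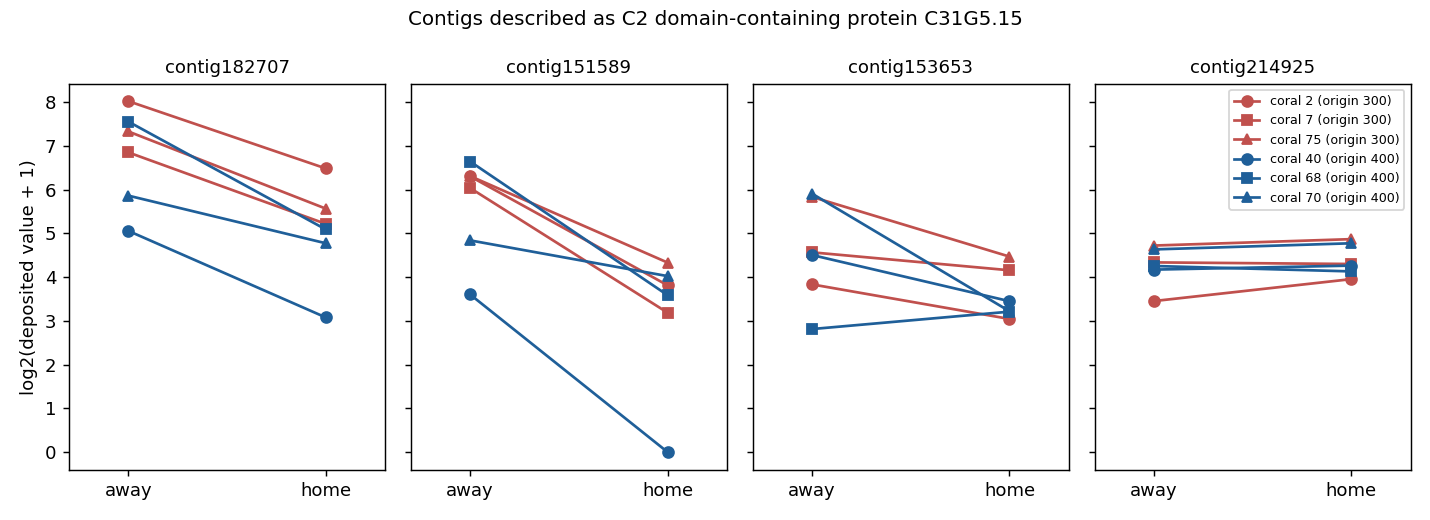
Log2(deposited value + 1) in the away and the home fragment of each of the 6 corals, for the 4 contigs that carry the description C2 domain-containing protein C31G5.15; each line joins the fragments of 1 coral, in red for origin 300 and blue for origin 400. All 6 lines fall from away to home in contig182707 and contig151589, 5 of 6 fall in contig153653, and contig214925 shows no common direction.

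This call moved with the setting. It passed in 13 of 27 alternatives, with log2 differences of -1.90 to -1.51 over all of them. It was lower at home in edgeR (adjusted p = 0.00343) and DESeq2 (adjusted p = 9.49e-11), and after median-ratio rescaling (limma adjusted p = 0.00318). It did not pass in limma with the pool as a further term on the deposited scale (adjusted p = 0.0771), though it did with that term after rescaling (adjusted p = 0.00625). With the home fragments of corals 40 and 68 exchanged the limma adjusted p was 0.9998, and the difference became 0.03 for coral 40 and -4.48 for coral 68, while DESeq2 with the exchanged pairs gave an adjusted p of 0.00392. Without corals 40 and 68 the log2 difference was -1.51 (limma adjusted p = 0.528). With a single coral left out the limma adjusted p was 0.396 without coral 2, 0.285 without coral 7, 0.305 without coral 75, 0.144 without coral 40, 0.200 without coral 68 and 0.0284 without coral 70.

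A second contig of the same description, contig151589, had the larger difference but a wider error. Its home values were 13.0, 8.10, 19.1, 0, 11 and 15.2 in corals 2, 7, 75, 40, 68 and 70, and its away values 77.8, 64.5, 78.2, 11.1, 98.7 and 27.6. The home fragment was again the lower in all 6 corals. The log2 difference was -2.46 (SE 0.35), which did not pass in limma (adjusted p = 0.196). It passed after median-ratio rescaling (limma adjusted p = 0.0241), after quantile normalization (0.0150), with the pool term after rescaling (0.0355), without coral 70 (0.0284) and in DESeq2 (2.53e-07), which is 5 of 26 alternatives. With the home fragments of corals 40 and 68 exchanged it passed in no fit (adjusted p = 0.974 in limma after rescaling and 0.9998 in DESeq2), and the difference became -0.02 for coral 40 and -6.64 for coral 68. After rescaling these were also the only 2 contigs more than 2-fold lower at home in all 6 corals, and no contig was more than 2-fold higher in as many as 5. With the exchanged pairs no contig was more than 2-fold lower in all 6. A shared description does not make these contigs 1 gene, and reads shared between near-identical contigs were not separated here.

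Of the other contigs of that description, contig153653 shared the direction in most corals and contig214925 did not. contig153653 had a home mean of 11.9 ± 5.68 and an away mean of 29.8 ± 22.3 (SD, n = 6 each), with the home fragment lower in 5 of 6 corals (log2 difference -0.99, SE 0.38, limma adjusted p = 0.999). contig214925 had means of 20.4 ± 5.54 and 18.9 ± 5.48 and was higher at home in 4 of 6 corals (log2 difference 0.12, SE 0.23), a direction that turned after rescaling (-0.01).

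The home difference of contig182707 was of like size in corals of either origin. It was -1.64 in corals from pool 300 (SE 0.29, limma adjusted p = 0.0400, and 0.698 with the exchanged pairs) and -1.84 in corals from pool 400 (SE 0.29, adjusted p = 0.262). The difference between these did not pass (0.20, SE 0.41, limma adjusted p = 0.9997). For contig151589 the values were -2.44 and -2.49 (SE 0.53 each). Among fragments living in one pool, home and away fragments come from different corals, so origin and home status are then 1 contrast. In pool 300 contig182707 was at 36.1 to 88.3 in home and 32.2 to 186.6 in away fragments, which overlap (log2 difference -0.40, SE 0.57). In pool 400 it was at 7.44 to 33.0 in home and 114.2 to 258.3 in away fragments, without overlap, though the difference did not pass (-3.09, SE 0.57, limma adjusted p = 0.171).

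The contigs below were named for sharing a direction in all 6 corals, so that direction is no finding. Among contigs that were higher at home in all 6 corals, the 12 of smallest p with an informative description are named here, and none of them passed (limma adjusted p = 0.999 for each). Integrin alpha (contig170211), a subunit of receptors that tie cells to their matrix, was at 140 to 252 with a median of 226 at home and at 44.7 to 213 with a median of 130 away. Probable ribonuclease ZC3H12C (contig55309), of a family that degrades messenger RNAs of inflammation in mammals, was at 17.4 to 66.9 with a median of 26.7 at home and at 1.66 to 27.6 with a median of 18.7 away. Profilin-2 (contig19975), an actin-binding protein, was at 13.7 to 31.9 with a median of 19.5 at home and 3.61 to 16.9 with a median of 11.4 away. The groups overlapped in all 3, and the log2 differences were 0.72 (SE 0.19), 1.18 (SE 0.34) and 0.87 (SE 0.30). In the shallow away library of coral 2, ZC3H12C stood at 1.66, the worth of 1 read, against 14.8 or more in the other away libraries.

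Enzymes and transporters were also among them. A pair of contigs described as glutaminyl-peptide cyclotransferase, an enzyme that closes the amino end of peptides into a ring, averaged 52.3 ± 7.72 at home and 32.1 ± 11.3 away (contig18008), and 16.8 ± 5.29 and 9.05 ± 5.21 (contig137384; SD, n = 6 each). SWEET10 (contig12664), of a family of sugar transporters, averaged 99.1 ± 24.4 at home and 69.5 ± 16.6 away. After rescaling these 3 were higher at home in 5 of 6 corals, coral 70 being the exception. The other 6 of the 12 contigs in this group were eIF5B, an endonuclease/reverse transcriptase, the Notch ligand jagged-1, prolyl oligopeptidase, glycine transporter 2 and 40S ribosomal protein S8. Their log2 differences ran between 0.35 for jagged-1 (contig119782, SE 0.12) and 0.98 for 40S ribosomal protein S8 (contig4366, SE 0.35). S8 was the 1 of 36 cytosolic ribosomal proteins that was higher at home after rescaling (2.78%, against 44.98% of all contigs).

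**Figure D2:**
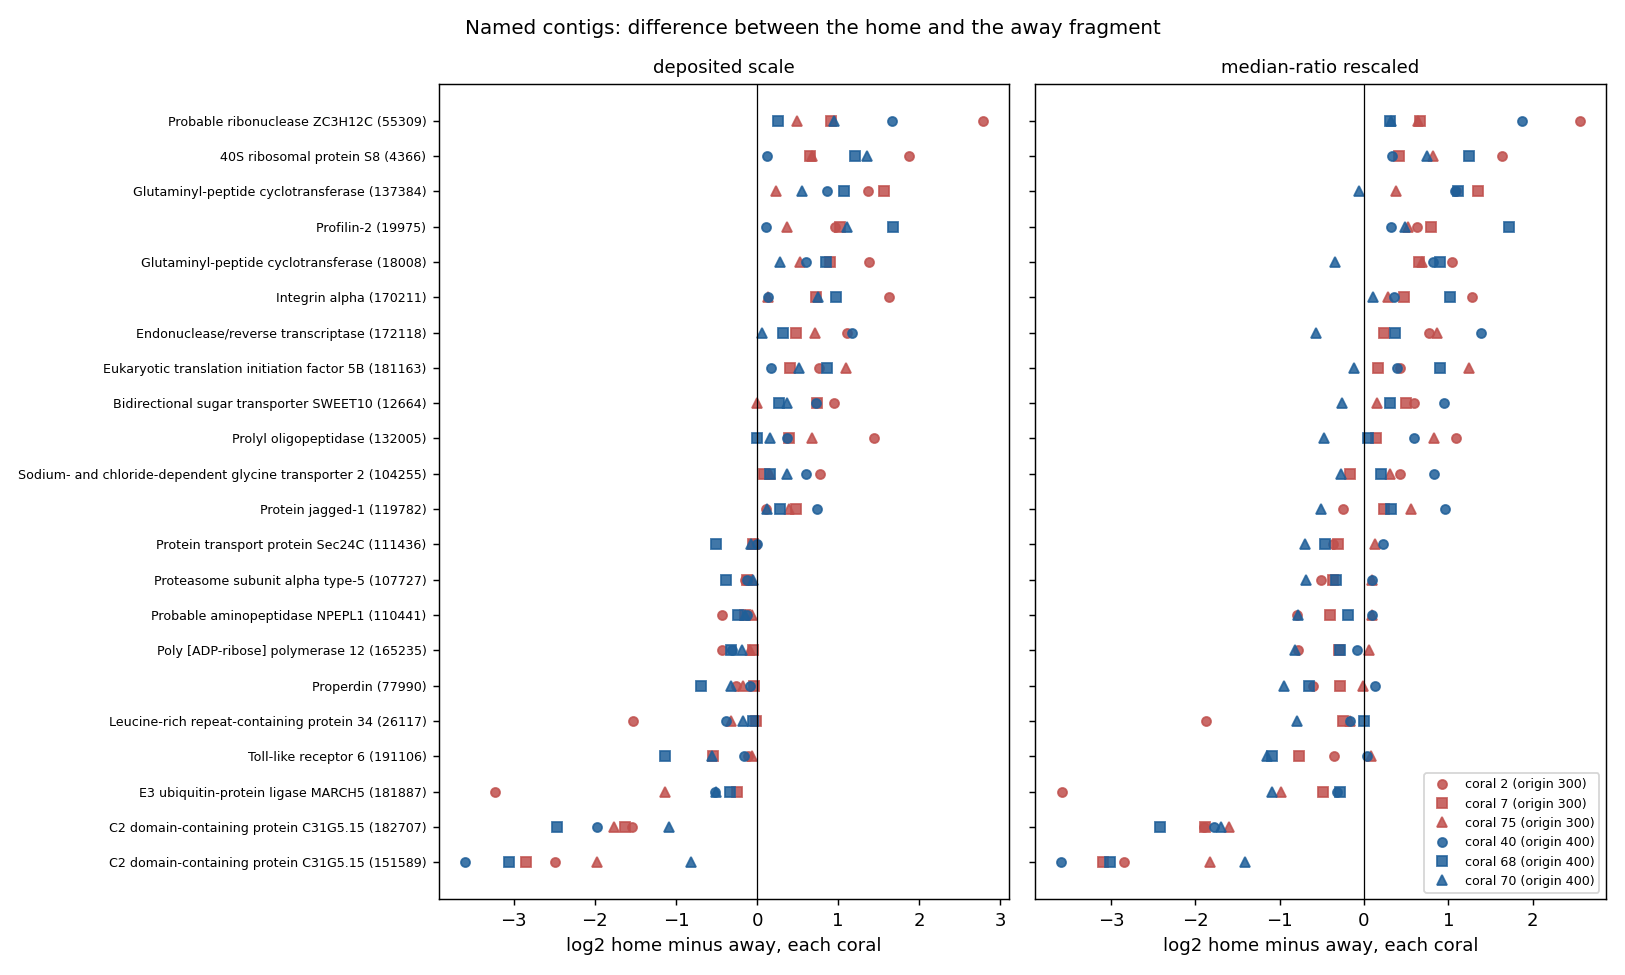
Log2 difference, home minus away, in each of the 6 corals for the 22 contigs named for a common direction, on the deposited scale (left) and after median-ratio rescaling (right); red is origin 300 and blue origin 400. On the left every point of a row lies on one side of 0 by the rule that chose the rows, and on the right coral 70 crosses 0 in several of the higher rows.

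Fewer contigs were lower at home in all 6 corals, and none beyond contig182707 passed (limma adjusted p = 0.196 for contig151589 and 0.999 for each of the others). E3 ubiquitin-protein ligase MARCH5 (contig181887), an enzyme of the mitochondrial outer membrane, was at 7.24 to 17.4 at home with a median of 11.1, and at 11.1 to 76.2 away with a median of 20.1 (log2 difference -0.995, SE 0.40). Its away value of 76.2 was that of coral 2, and the other away values were 21.1 or less. Leucine-rich repeat-containing protein 34 (contig26117) also had its high away value, 106, in coral 2. Poly [ADP-ribose] polymerase 12 (contig165235), properdin (contig77990), a complement regulator in mammals, and Toll-like receptor 6 (contig191106), a pathogen receptor, had log2 differences of -0.23 (SE 0.15), -0.26 (SE 0.17) and -0.43 (SE 0.34).

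In all, 78 contigs were higher at home in all 6 corals (0.655%) and 21 were lower (0.176%), as deposited. After median-ratio rescaling, which lowered the median contig, they were 94 (0.79%) and 79 (0.664%). With the exchanged pairs they were 108 (0.907%) and 17 (0.143%) on the deposited scale. Were signs random, 1 of 64 contigs would be higher in all 6 corals and 1 of 64 lower, and each of these shares is smaller. On both scales and in both pairings 12 contigs were higher (0.101%) and 4 lower (0.0336%). The higher ones included integrin alpha, ZC3H12C, profilin-2, serine palmitoyltransferase 1, HUWE1, bone morphogenetic protein receptor type-1B and RING finger protein 126, and the 4 lower ones carried no informative description.

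On the deposited scale no contig had all 6 home libraries apart from all 6 away libraries (0%). After rescaling 1 contig lay above (0.0084%) and 1 without a description below (0.0084%). The first was serine palmitoyltransferase 1 (contig108681), part of the enzyme that opens sphingolipid synthesis, at rescaled values of 59.2 to 86.3 at home and 45.6 to 57.2 away. E3 ubiquitin-protein ligase HUWE1 (contig119000) was the 1 contig whose home libraries lay above the away libraries within each pool on the deposited scale (0.0084%). It was at 13.0 to 19.9 at home against 9.63 to 12.4 away in pool 300, and at 14.0 to 22.2 against 1.66 to 13.1 in pool 400. After rescaling 3 contigs lay above (0.0252%) and 9 below (0.0756%) within each pool, and HUWE1 was not among them. These contigs were picked out after their values were seen.

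No member of the 27 gene lists, which group contigs by words in their descriptions, passed the test of home against away in either direction. Over all contigs 1 of 11903 passed (0.0084%), so 0 in a list is near the share over all contigs. List medians lay from 0.15 below that of all contigs (cnidocytes) to 0.07 above it (collagens and extracellular matrix). Of 94 heat shock proteins and chaperones tested, 0 passed and 0 had an unadjusted p under 0.05, and the median log2 difference was 0.10, as over all contigs. DnaJ homolog subfamily A member 1 (contig177903), a partner of the chaperone Hsp70, averaged 91.8 ± 16.3 at home and 73.4 ± 14.7 away (log2 difference 0.33, SE 0.15). Of 75 antioxidant and redox proteins, 0 passed and the median was 0.06. Thioredoxin domain-containing protein 16 (contig192684) averaged 144 ± 22.0 at home and 109 ± 29.2 away (0.43, SE 0.16). Of 86 TNF receptors, TRAFs and apoptosis proteins, 0 passed, with caspase-8 (contig205595), which starts apoptosis, at 42.5 ± 13.3 and 28.8 ± 17.7 (SD, n = 6 each).

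Of 85 contigs of innate immunity and lectins, 0 passed and 6 had an unadjusted p under 0.05, against 160 of all 11903 contigs (1.34%). The NF-kappa-B p105 subunit (contig209403), a precursor of a transcription factor of immune responses, was at 49.2 to 127 at home with a median of 67.0, and at 19.9 to 73.9 away with a median of 51.6. Its home fragment was the higher in 5 of 6 corals as deposited and in 6 of 6 after rescaling (log2 difference 0.57, SE 0.21). A Toll-like receptor 6 contig (contig202554) averaged 91.7 ± 33.4 at home and 67.2 ± 22.1 away, opposite in direction to the contig of the same name above. Neither passed in limma (adjusted p = 0.999 each).

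Lists tied to the skeleton and the symbiosis held no call either, where 1 of all 11903 contigs was called (0.0084%). Of 34 calcification contigs 0 passed, with carbonic anhydrase 2 (contig176504), which interconverts carbon dioxide and bicarbonate, at 96.8 ± 46.8 at home and 75.9 ± 37.5 away. Small cysteine-rich protein 2 (contig151647) lay the other way, at 181 ± 82.6 and 231 ± 102 (SD, n = 6 each). Of 20 contigs of sterol transfer, ammonium and nutrient exchange 0 passed, with an epididymal secretory protein E1 contig (contig157493), a sterol carrier also known as NPC2, at 44.0 ± 24.6 and 29.6 ± 30.9. Of 10 fluorescent proteins 0 passed, and their median lay 0.05 below that of all contigs. In single corals it ran from 0.53 below in coral 7 to 0.94 above in coral 40, and after rescaling 1 of the 10 was higher at home (10%, against 44.98% of all contigs).

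As in every list, the medians of ribosomal and respiratory proteins, taken relative to all contigs, differed in sign between corals. The median of 36 cytosolic ribosomal proteins lay 0.14 below that of all contigs, and over single corals it ran from 0.74 below to 0.32 above, with 3 corals on each side of 0. The median of 71 contigs of oxidative phosphorylation lay 0.10 below, with 3 corals on each side. The 18 contigs of AP-1, Myc and early response factors lay 0.11 below, and the 146 contigs of collagens and extracellular matrix 0.07 above. After rescaling 1 of the 36 (2.78%), 14 of the 71 (19.72%) and 4 of the 18 (22.22%) were higher at home. Of the 146, 79 were (54.11%), against 44.98% of all contigs. Values for the proteasome, glycolysis, lipid metabolism, mitochondrial ribosomes, metalloproteinases, ion channels, G protein-coupled receptors, transposons, cytochrome P450, circadian clock and cell cycle lists lay within 0.06 of all contigs.

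**Figure D3:**
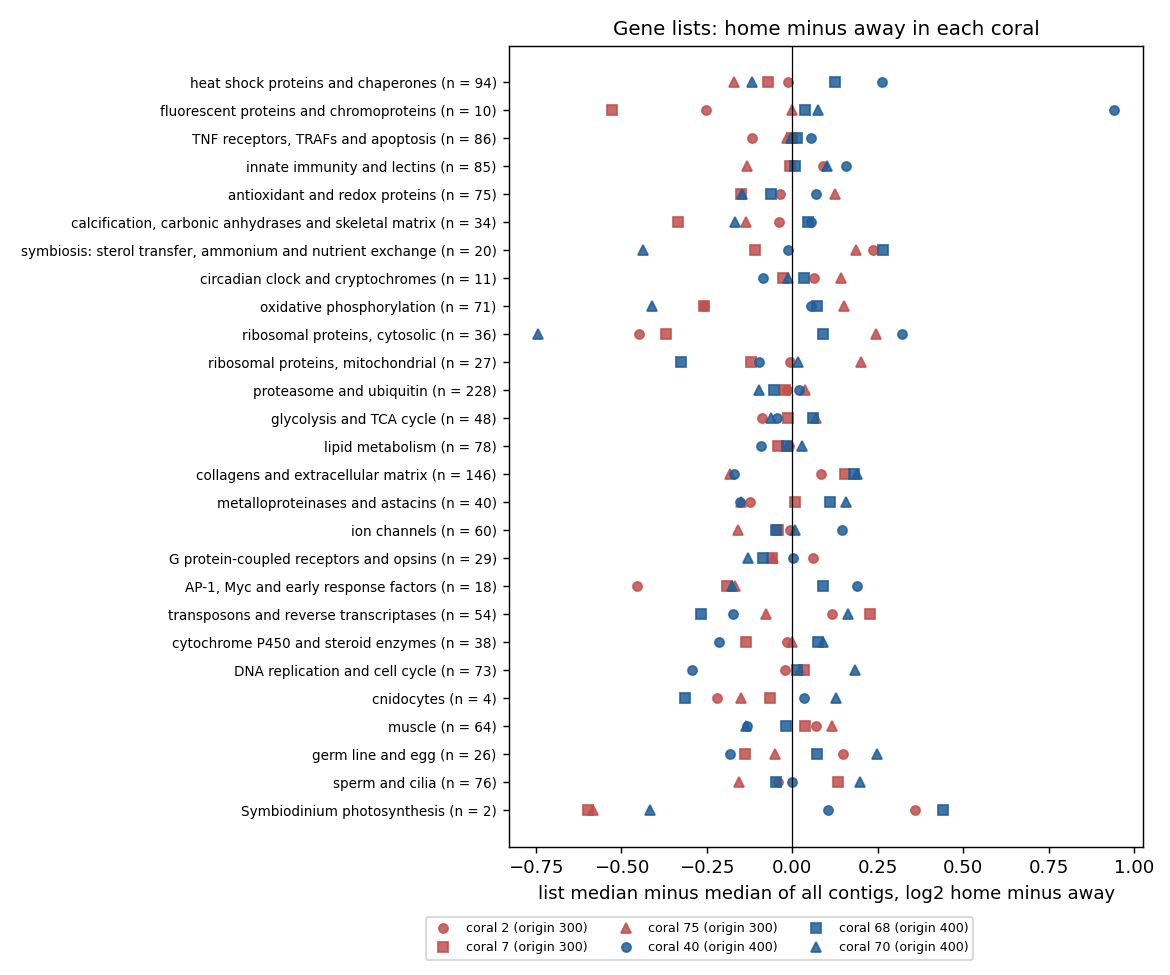
Median log2 difference, home minus away, of each gene list minus the median of all contigs, in each of the 6 corals; n is the number of members tested, red is origin 300 and blue origin 400. Points of every list lie on both sides of 0, and cytosolic ribosomal proteins spread from -0.74 to 0.32.

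Markers of cell types were likewise without a call: 0 of 64 muscle, 0 of 26 germ line and egg, 0 of 76 sperm and cilia, 0 of 4 cnidocyte and 0 of 2 Symbiodinium photosynthesis contigs passed. Over all contigs 1 of 11903 passed (0.0084%), so these counts do not set the cell types apart. The summed level of the 4 cnidocyte markers, which mark the stinging cells of corals, was 281.8 to 444.6 at home and 293.0 to 378.1 away, and none of the 4 was at 0 throughout. The 2 algal contigs summed to 62.0 to 85.4 at home and 43.4 to 121.5 away. The median of the sperm and cilia list equalled that of all contigs to 2 decimals, at 0.10. Of its members cytoplasmic dynein 1 heavy chain 1 (contig103951), a motor found in many cell types, had the smallest p: it averaged 19.2 ± 7.91 at home and 8.87 ± 5.41 away, with 0 in the away library of coral 2 (log2 difference 1.35, SE 0.47, limma adjusted p = 0.999).

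The home difference was not the same in corals of both origins. In 75 contigs it was lower in corals from pool 300 (0.63%) and in 1 it was higher (0.0084%), by the limma test of the difference itself, and after rescaling these were 38 and 1. With the exchanged pairs they were 85 and 0 as deposited and 39 and 0 rescaled, and with 1 coral left out 54 to 73 contigs passed. With the coral blocked, this difference is also the difference between pools, and the 2 cannot be told apart. Transcription factor AP-1 (contig211469) was at 210, 164 and 472 at home and 1507, 1309 and 1686 away in corals 2, 7 and 75. In corals 40, 68 and 70 it was at 1326, 1329 and 791 at home and 458, 677 and 614 away. Home was thus the lower in 3 of 3 corals of origin 300 and the higher in 3 of 3 of origin 400, and the difference between origins was -3.51 (SE 0.34, limma adjusted p = 0.00242, and 0.0316 after rescaling).

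Further contigs had the same form. For the Myc proto-oncogene protein (contig139133) the home difference was -2.28 in origin 300 and 0.55 in origin 400, for early growth response protein 1 (contig68383) -2.13 and 0.57, and for matrix metalloproteinase-24 (contig44450) -2.36 and 0.75. The differences between origins passed on the deposited scale (limma adjusted p = 0.0121, 0.0267 and 0.00394) and not after rescaling (0.0631, 0.171 and 0.0578). With the exchanged pairs they passed as deposited (0.00391, 0.0255 and 0.00239). Early growth response protein 1 did not pass without coral 2 (0.139), 40 (0.0525), 68 (0.0892) or 70 (0.111), nor Myc without coral 2 (0.0631). Of the lists, 8 of 94 heat shock contigs and 4 of 18 contigs of AP-1, Myc and early response factors differed, and 5 and 2 after rescaling. Each had the lower home difference in origin 300 as deposited. Over all contigs 75 of 11903 did (0.63%), and 38 after rescaling (0.319%). There were 2 such contigs each in the lists of TNF receptors and apoptosis (of 86), metalloproteinases (of 40) and cytochrome P450 (of 38). There was 1 each in those of fluorescent proteins (of 10), innate immunity (of 85), glycolysis (of 48), lipid metabolism (of 78) and cell cycle (of 73). The other lists held 0. Because the lists were chosen with earlier results of these data known, these counts are given as a description. Within corals of one origin, 64 contigs fell and 2 rose at home in origin 300 (0.538% and 0.0168%), and 0 passed in origin 400, where 244 had an unadjusted p under 0.05 (2.05%).

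**Figure D4:**
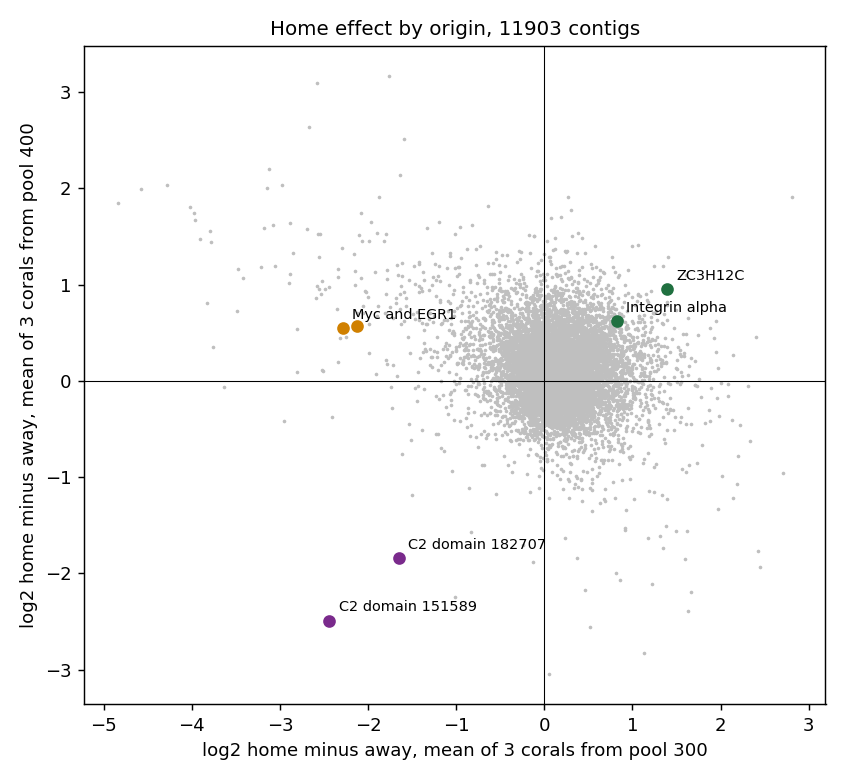
Log2 difference, home minus away, averaged over the 3 corals from pool 300 (horizontal) and the 3 corals from pool 400 (vertical), for 11903 contigs as grey points, with named contigs in colour. The C2 domain contigs lie low on both axes, at -1.64 and -1.84 and at -2.44 and -2.49, while Myc and EGR1 lie to the left and above 0.

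Relative to the median contig of each origin, 5 contigs were more than 1 log2 unit higher at home in both origins and 5 were lower in both, while 68 were lower in origin 300 and higher in origin 400, and 24 the reverse. A single contig, contig151589, was more than 2 log2 units lower in both. This tally was chosen after the values were seen. Among fragments living in 1 pool, limma called 2 contigs in pool 300 and 1 in pool 400. A sugar-binding receptor, contig71140 (C-type lectin domain family 10 member A), was lower at home in pool 300 (-5.71, SE 0.79, adjusted p = 0.0353) and higher at home in pool 400 (6.01, SE 0.79, adjusted p = 0.0258), and Tumor necrosis factor receptor superfamily member 16 (contig176696) was higher at home in pool 300 (3.42, SE 0.49, adjusted p = 0.0353). After rescaling contig71140 did not pass in pool 300 (adjusted p = 0.0974) and passed in pool 400 (0.0393), while contig176696 passed in both, higher at home in pool 300 (0.0206) and lower at home in pool 400 (-3.28, SE 0.41, adjusted p = 0.0193). Home is origin 300 in pool 300 and origin 400 in pool 400, so these opposite signs are the same origin difference in either pool. By origin, contig71140 was higher in corals from pool 400 and contig176696 in corals from pool 300. Paired by coral, their home differences were 0.15 and 0.21 (limma adjusted p = 0.999 each). After rescaling the count in pool 300 was 1, and in pool 400 it was 3 higher (0.0252%) and 3 lower (0.0252%). With the exchanged pairs, on the deposited scale, 2 and 4 contigs passed.

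Home and away fragments of single corals lay at unequal distances. The median absolute log2 difference over contigs ran from 0.32 in coral 7 to 0.59 in coral 70, and from 0.30 in coral 7 to 0.50 in coral 2 after rescaling. Corals 2 and 70, with the largest values, held the shallowest and the deepest library, and the part of depth in these distances was not tested. The share of contigs more than 2-fold apart after rescaling was 7.34% in coral 7 and 19.96% in coral 2. Over all contigs the away fragment correlated with the residents of its new pool by 0.03 more than its home fragment did in coral 40, by 0.06 more in coral 70 and by 0.07 less in coral 2. In corals 7, 75 and 68 the gain was 0.02, 0.01 and 0.00. These fragments share resident libraries, so the values are given as a description.

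**Figure D5:**
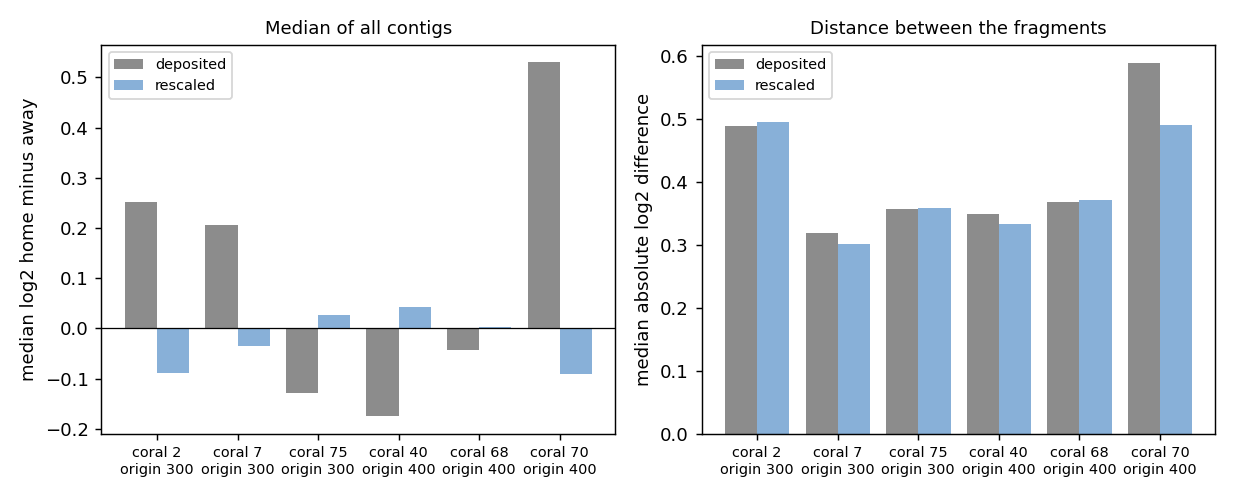
Median log2 difference, home minus away, over all contigs (left) and median absolute log2 difference (right) in each coral, on the deposited scale (grey) and after median-ratio rescaling (blue). The deposited medians run from -0.17 in coral 40 to 0.53 in coral 70, and the rescaled ones from -0.09 to 0.04.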

How the data were processed

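The deposited table gives a signal for each of 16980 contigs in 12 libraries: reads divided by a size factor, as the values show, since all but 1 were whole multiples of what 1 read is worth (tolerance 0.01; that value was read as 0). Pool 400 columns are marked as adjusted, per the file headers; how is not stated in them. The submitters' processing notes name BWA and DESeq, with versions and roles not given in the sources used here. Counts in each direction rest on limma 3.58.1 (R 4.3.3) on log2(value + 1), with a variance trend, the coral as block, contigs of mean 10 or more and Benjamini-Hochberg adjusted p under 0.05. This scale understates changes of low contigs. edgeR 4.0.16 and DESeq2 1.42.0 were run on recovered reads. The pairing comes from the coral numbers in the labels. The simulated check changed 200 contigs, and 8 of 126 limma calls were false. The columns of group means and SDs were not used. Members and lists were chosen with earlier results of these data known. Named contigs were those called, up to 12 of smallest p higher and 12 lower at home in all 6 corals, and 3 of smallest p per list. Word patterns of 2 lists matched unrelated proteins and were corrected after matches and results had been seen. Without a genome, neither positions nor sequences of contigs are shown. The tallies of shared direction over both scales and pairings, of 2-fold differences by coral, of groups without overlap and of origins side by side were added after seeing the data.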

Additional observations from a re-analysis of the deposited data

Results flagged for a closer look

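Of 202 groups of 6 libraries examined, over 101 named contigs, 22 extreme libraries stood apart from the other 5 by Dixon's criterion, which chance meets in about 1 group in 20. Of these, 15 were the away library of coral 2, the shallowest. There the values were 1.66 for ZC3H12C, Toll-like receptor 6 (contig191106) and HUWE1, 0 for scavenger receptor M130 and cytoplasmic dynein 1 heavy chain 1, 115.9 for glycine transporter 2, 76.2 for MARCH5, 21.5 for thioredoxin reductase 1 and 14.9 for carbonic anhydrase 2. They were 59.6 for small cysteine-rich protein 2, 29.8 for NADH dehydrogenase 1 alpha subunit 8, 8.28 for pyruvate carboxylase, 13.2 for phospholipase B-like 2, 6.62 for the sodium leak channel and 23.2 for DAZ-associated protein 1. All but that of MARCH5 lay below the other away libraries. The deposited size factor of this library was 1.29 times its median-ratio factor, and a larger factor lowers deposited values. Some of these contigs were also named for being higher at home in all 6 corals, which favours low away values. The parts of depth, scaling and choice in these values were not tested.

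The home library of coral 2 stood at 110.1 for Sec24C, above the others, and at 49.2 for DAZ-associated protein 1, below them. The home library of coral 40 was at 0 for contig151589, against 8.10 to 19.1 in the others. The home library of coral 68 was at 5.50 for epididymal secretory protein E1 (contig157493), against 40.9 to 82.8. The home library of coral 70, the deepest, was at 35.3 for collagen triple helix repeat-containing protein 1 and at 85.2 for G-protein coupled receptor 125, above the others. The deposited size factor of that library was 0.641 times its median-ratio factor, and a smaller factor raises deposited values. The part of this scaling was not tested. The away library of coral 40 was at 55.7 for matrix metalloproteinase-25, below the others.

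The home difference differed between origins, by the limma test of the difference itself, in 4 named contigs: matrix metalloproteinase-24 (origin 300 minus origin 400, -3.11 on the log2 scale), Myc (-2.83), early growth response protein 1 (-2.70) and transcription factor AP-1 (-3.51).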

How the results depend on the processing

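For home against away 27 alternatives were run, 4 of them added after seeing the data. All alternatives for the other tests named here that exchange the pairs, rescale the between-origin test or leave out a coral from it were also added then. The count of contigs differing between home and away, 1 as reported, was 2 after median-ratio rescaling, after quantile normalization, with the pool term after rescaling and in DESeq2. It was 0 with a minimum mean of 50, with the pool term, with the coral as a random effect, without corals 40 and 68, and with the exchanged pairs in limma as such, rescaled or with the pool term, as well as in edgeR with exchanged pairs and the pool term. Without the replicate block, that is without pairing, it was 0. With 1 coral left out it ran from 0 to 2. Contigs whose home difference varied by origin numbered 76 as deposited, 39 after rescaling, 85 with the exchanged pairs, 39 with both, and 54 to 73 with 1 coral left out. The calls within pool 300 went from 2 to 1 and within pool 400 from 1 to 6 after rescaling, with or without the exchange, and with the exchange alone they were 2 and 4. The calls within origin 300 were 66 as reported, 48 after rescaling, 76 with the exchange and 44 with both. Contigs lower at home in all 6 corals went from 21 to 79 after rescaling. The cause was not tested.

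Of 101 named contigs, 94 kept their direction in every alternative run. The other 7 had log2 differences near 0 or with wide errors, and no call in any alternative. In limma the log2 difference did not move with the pool term, the block or the exchanged pairs. That of contig182707 was -1.74 in each such fit on the deposited scale. Contigs named for a common direction in all corals could not turn on that scale when corals were left out. The count of 94 was thus partly set by the design and by the choice of contigs. amFP486 (contig151799), 0.09 as reported, was at -0.0435 after rescaling, with or without the pool term or exchanged pairs. It was at -0.0323 in edgeR, -0.0214 in edgeR with the pool term, -0.0401 in DESeq2, -0.0651 without corals 40 and 68, -0.0167 in edgeR with exchanged pairs and the pool term, -0.0888 in DESeq2 with exchanged pairs, and -0.109 to 0.242 with 1 coral left out. A cyano fluorescent protein (contig170869), 0.10 as reported, was at -0.0285 in the same rescaled fits, -0.101 after quantile normalization, -0.0219 in edgeR, -0.0256 with the pool term, -0.0131 in DESeq2, -0.0215 and -0.0253 in edgeR and DESeq2 with exchanged pairs, and -0.138 to 0.514 with 1 coral left out. Photosystem Q(B) protein (contig217061), 0.02 as reported, was at -0.114 in the rescaled fits, -0.113 after quantile normalization, -0.117 in edgeR, -0.119 with the pool term, -0.121 in DESeq2, -0.130 and -0.128 with exchanged pairs, and -0.166 to 0.112 with 1 coral left out. contig214925, 0.12 as reported, was at -0.00807 in the rescaled fits, -0.0744 after quantile normalization, -0.00172 in DESeq2, and -0.00255 and -0.00814 in edgeR and DESeq2 with exchanged pairs. Nematocyst outer wall antigen (contig55047), -0.08 as reported, was at 0.142 without corals 40 and 68 and -0.304 to 0.04995 with 1 coral left out. CP47 (contig194637), -0.03 as reported, was at 3.63e-05 with a pseudocount of 0.5 and -0.290 to 0.162 with 1 coral left out. nb012a (contig80423), -0.23 as reported, ran from -0.664 to 0.0685 with 1 coral left out.

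Depth limits the low contigs: 3 reads are worth 1.76 to 4.97 of the deposited values, and this covers counting error only. Named contigs with a mean under 50 have no value at the minimum mean of 50.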
